A study of Bos taurus with 8 samples.

Results

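The 7 genes described here encode proteins that work on steroid receptors without binding the hormone themselves: the coactivators NCOA1, NCOA2 and NCOA3, the corepressors NCOR1 and NRIP1, and the co-chaperones FKBP4 and PTGES3. They were chosen by symbol from the deposited table of 28709 genes, and all 7 were found once each and passed the filter on low counts. The study used BUTE cells, an immortalized line of epithelial cells from the uterus of a Holstein cow, labelled as wild type. Treated cells received 10 µM progesterone for 24 h and controls received the vehicle DMSO, with 4 poly(A) RNA libraries in each group. Beforehand both groups spent 24 h free of serum and steroids, in medium with the growth factor IGF1, which stayed at 50 ng/ml during treatment. Whether the 4 libraries of a group are separate cultures is not in the labels, and p-values below measure only the spread between libraries, which may be technical. The cells are 1 immortalized line from a single animal.

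Before hormone arrives, a steroid receptor is held by the chaperone HSP90 together with co-chaperones. PTGES3, also called p23, stabilizes the closed form of HSP90 on the receptor. FKBP4, also called FKBP52, is an immunophilin that attaches to HSP90 through its tetratricopeptide repeats (TPR), and in mice its loss impairs progesterone receptor activity in the uterus. Hormone-bound receptor then recruits p160 coactivators, the family of NCOA1, NCOA2 and NCOA3, which bring histone acetyltransferases to the gene. NCOR1 brings histone deacetylase HDAC3 instead, and NRIP1, also called RIP140, binds hormone-bound receptors and represses many of their targets. FKBP5, or FKBP51, competes with FKBP4 for HSP90 and is a well-known target gene of the progesterone and glucocorticoid receptors.

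Libraries held between 23810861 and 32509786 estimated counts. Levels are given in CPM, a gene's count scaled by the size of its library, here the effective size after TMM normalization. Since transcript lengths were not used, levels are compared between libraries and not between genes. Libraries carry the names of the table's columns: progesterone R1, R2, R3 and R6, and DMSO R1, R3, R7 and R9. DMSO R7 and R9 stood apart from the other 6: at 6671 of 13557 genes tested, 49.2%, both lay above all of the other 6 or both lay below them. Values are therefore given with all 8 libraries and also without this pair. Of the epithelial markers KRT8, KRT18, KRT19, KRT7, EPCAM, CDH1, CLDN4 and TJP1, 5 of 8 had at least 1 CPM in every library. EPCAM had 0.275, 0.595, 0.421 and 0.414 CPM in progesterone R1, R2, R3 and R6, against 0.546, 0.624, 1.97 and 2.53 CPM in DMSO R1, R3, R7 and R9, and CLDN4 had at most 3 counts in a library. All 7 stromal markers passed 1 CPM in every library, among them COL1A1 and DCN. Their summed level was 5286 to 6204 CPM with progesterone and 6901 to 13397 CPM with DMSO, with 13397 and 12445 CPM in DMSO R7 and R9. COL1A1 and COL1A2 made up most of this sum, at 6553.5 and 6376 CPM in DMSO R7. The markers did not move together. DCN had 268 and 281 CPM in DMSO R7 and R9, against 962 and 770 CPM in DMSO R1 and R3. PDGFRB was also lower in DMSO R7 and R9 than in R1 and R3, while LUM, PDGFRA, THY1, COL1A1 and COL1A2 were higher. The epithelial sum was 1986 to 2908 CPM with progesterone and 3128 to 3365 CPM with DMSO. KRT8 made up most of it, at 1348 to 2107 CPM with progesterone and 2286 to 2789 CPM with DMSO. Log2 fold changes, progesterone over DMSO, were 0.08 for KRT19, 0.22 for KRT7 and 0.37 for CDH1. They were -0.51 for KRT8, -1.49 for KRT18, -1.73 for EPCAM and -0.02 for TJP1, and none of these markers passed an adjusted p of 0.05 in edgeR. Of the other markers, 1 of 7 immune, 1 of 6 endothelial and 4 of 5 smooth muscle genes had 1 CPM in every library, and PTPRC was at 0. Summed levels with progesterone and with DMSO were 8.99 to 14.1 and 5.82 to 13.4 CPM for immune genes, 3.88 to 6.66 and 3.02 to 5.03 CPM for endothelial genes, and 865 to 1099 and 904 to 1113 CPM for smooth muscle genes. The part of these markers in the values below was not tested.

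The comparison asked whether messenger RNA for the coregulators and co-chaperones differed after progesterone. None of the 7 passed an adjusted p of 0.05 (edgeR quasi-likelihood test, Benjamini-Hochberg adjustment over all genes), where 2.65% of all genes tested did. DESeq2 and limma voom also called 0 of 7, against 13.5% and 2.04% of all genes. At an unadjusted p under 0.05 there was 1 of 7, FKBP4, against 26.8% of all genes. For none of the 7 were the groups free of overlap, against 16.2% of all genes. The median log2 fold change was -0.07 over the 7 and -0.01 over all genes tested. The 95% intervals of the 7 changes lay between 0.722-fold and 1.34-fold. Without DMSO R7 and R9, 0 of 7 passed in edgeR, against 1.18% of all genes, 0 of 7 had an unadjusted p under 0.05, and the intervals lay between 0.795-fold and 1.35-fold. These intervals are per gene and are not adjusted for the number of genes. In bulk RNA a change in the cells that express a gene and a change in RNA per cell cannot be told apart.

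**Figure D1:**
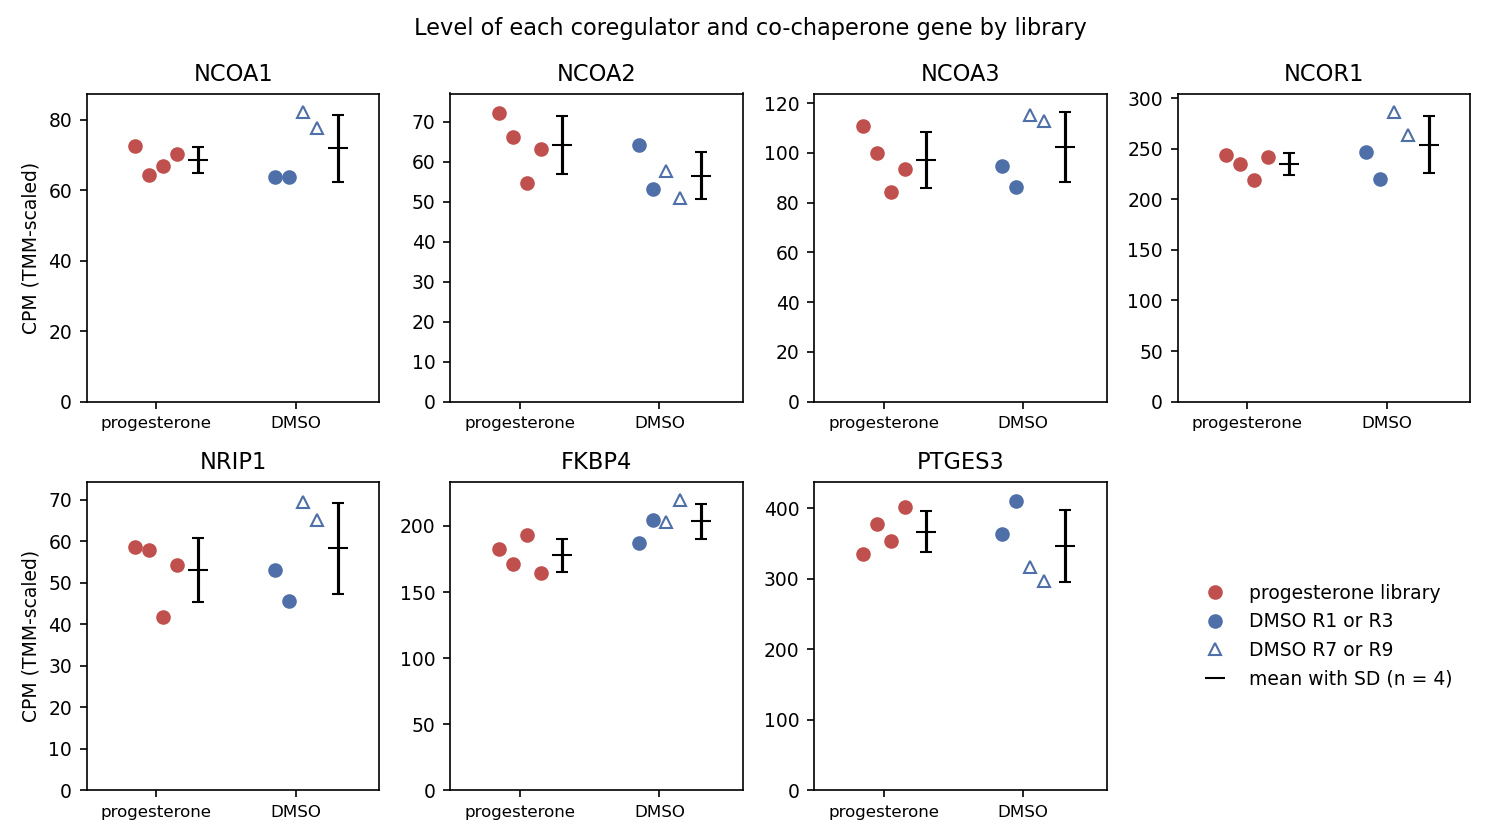
CPM of each of the 7 genes in every library, with progesterone on the left of each panel and DMSO on the right. Triangles mark DMSO R7 and R9, and bars give the mean and SD of the 4 libraries of a group. In no panel are the groups apart, and in the panels of NCOA1, NCOA3, NCOR1 and NRIP1 the triangles are the highest points.

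Among the p160 coactivators, NCOA1 (SRC-1, Entrez Gene 525346, chromosome 11) had 72.6, 64.3, 66.9 and 70.3 CPM in progesterone R1, R2, R3 and R6, against 63.8, 63.8, 82.4 and 77.6 CPM in DMSO R1, R3, R7 and R9. The 4 progesterone libraries lay between the lower and the higher pair of DMSO libraries. The means were 68.5 ± 3.68 CPM with progesterone and 71.9 ± 9.54 CPM with DMSO (SD, n = 4 each), a log2 fold change of -0.07 ± 0.10 SE (edgeR adjusted p = 0.686). The sign turned without DMSO R7 and R9, to 0.12 ± 0.09 (edgeR adjusted p = 0.566). In that comparison NCOA1 alone among the 7 had groups without overlap, which 26.7% of all genes had, by a narrow margin in CPM.

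NCOA2 (SRC-2, 508162, chromosome 14), known for its part in progesterone-driven decidualization in mice and humans, had 72.3, 66.1, 54.8 and 63.3 CPM in progesterone R1, R2, R3 and R6. In DMSO R1, R3, R7 and R9 it had 64.3, 53.3, 57.8 and 50.9 CPM. Progesterone R1 and R2 were above every DMSO library, progesterone R6 was just below DMSO R1, and progesterone R3 was among the other DMSO values. Its log2 fold change was 0.18 ± 0.11 SE (edgeR adjusted p = 0.300) and, without DMSO R7 and R9, 0.14 ± 0.12 (0.627). NCOA2 was the only one of the coregulator genes whose change was above 0 in both comparisons.

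NCOA3 (SRC-3, 523707, chromosome 13), a coactivator known to be amplified in human breast cancer, had 110.8, 99.97, 84.2 and 93.6 CPM in progesterone R1, R2, R3 and R6. In DMSO R1, R3, R7 and R9 it had 94.9, 86.1, 115.3 and 112.8 CPM. Progesterone R3 was the lowest of the 8 libraries and DMSO R7 the highest, so the groups overlapped widely. The log2 fold change was -0.07 ± 0.12 SE (edgeR adjusted p = 0.714) with all libraries and 0.12 ± 0.11 (0.666) without DMSO R7 and R9.

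The corepressor NCOR1 (507663, chromosome 19) had 243.9, 234.6, 219.1 and 241.9 CPM in progesterone R1, R2, R3 and R6, against 246.3, 219.9, 286.7 and 263.5 CPM in DMSO R1, R3, R7 and R9. Progesterone libraries differed little, with a coefficient of variation of 4.79%, while the DMSO libraries had 11.1%. NCOR1 had a log2 fold change of -0.11 ± 0.10 SE (edgeR adjusted p = 0.460) and, without DMSO R7 and R9, 0.02 ± 0.09 (0.931).

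NRIP1 (524960, chromosome 1), a corepressor needed for ovulation in mice, had 58.6, 57.8, 41.8 and 54.1 CPM in progesterone R1, R2, R3 and R6. In DMSO R1, R3, R7 and R9 it had 53.2, 45.5, 69.3 and 64.98 CPM. It varied most of the 7, with a 1.66-fold span from progesterone R3 to DMSO R7. The log2 fold change was -0.13 ± 0.15 SE (edgeR adjusted p = 0.591) and, without DMSO R7 and R9, 0.12 ± 0.14 (0.730).

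**Figure D2:**
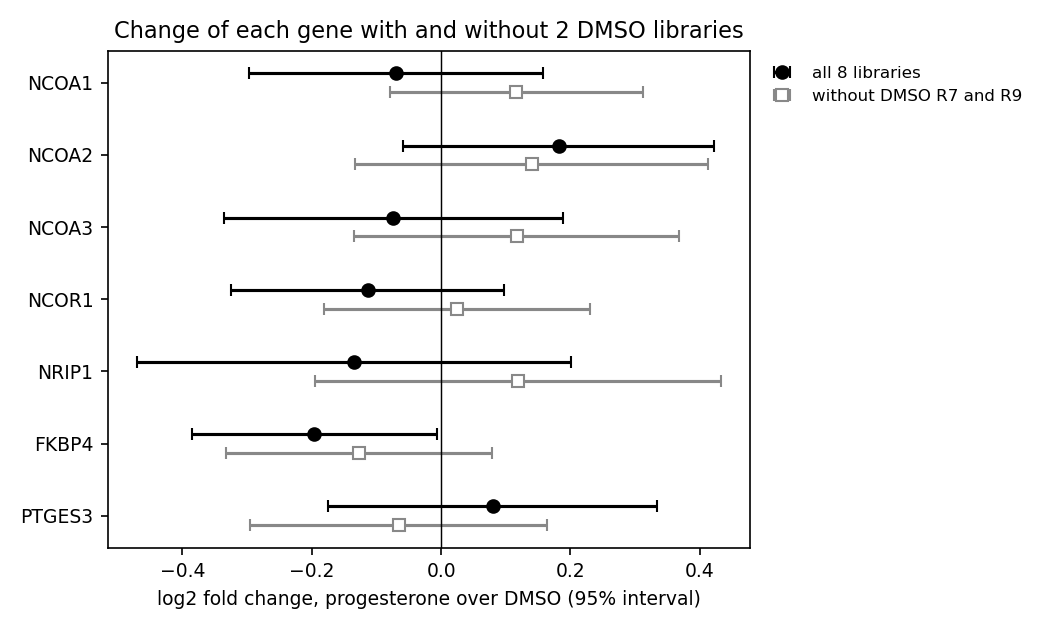
Log2 fold change of each gene, progesterone over DMSO, with its 95% interval, from all 8 libraries (filled circles) and without DMSO R7 and R9 (open squares). With all libraries, the interval of FKBP4 alone does not reach 0, and its adjusted p was 0.176. NCOA1, NCOA3, NCOR1, NRIP1 and PTGES3 lie on opposite sides of 0 in the 2 comparisons.

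Of the co-chaperones, FKBP4 (508535, chromosome 5) had 182.6, 171.3, 192.9 and 164.2 CPM in progesterone R1, R2, R3 and R6, against 186.8, 204.8, 203.3 and 219.4 CPM in DMSO R1, R3, R7 and R9. Progesterone R3 lay above DMSO R1, and the other 3 progesterone libraries were below every DMSO library. The means were 178 ± 12.6 CPM with progesterone and 204 ± 13.4 CPM with DMSO (SD, n = 4 each). The log2 fold change was -0.20 ± 0.09 SE, with an unadjusted p of 0.0438 and an adjusted p of 0.176 in edgeR. It was -0.13 ± 0.09 without DMSO R7 and R9 (edgeR adjusted p = 0.550). FKBP4 kept its sign under all 18 alternative settings, with log2 fold changes from -0.24 to -0.06, and passed under none of them.

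PTGES3 (493638, chromosome 5), which also carries a prostaglandin E synthase activity, had 334.6, 376.8, 353.8 and 401.1 CPM in progesterone R1, R2, R3 and R6. In DMSO R1, R3, R7 and R9 it had 363.9, 410.6, 317.2 and 296.1 CPM. DMSO R3 was the highest of the 8 libraries and DMSO R9 the lowest, so all progesterone libraries lay within the span of the vehicle. The log2 fold change was 0.08 ± 0.11 SE (edgeR adjusted p = 0.679) and, without DMSO R7 and R9, -0.07 ± 0.10 (0.816). PNRC1 and PNRC2 are separate genes whose product names contain those of NCOA1 and NCOA2. Apart from them, no other row of the table carries the product name of any of the 7 genes. This bears on reads shared with annotated copies only.

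The SD of the DMSO libraries exceeded the difference between the group means for NCOA1, NCOA3, NCOR1, NRIP1 and PTGES3, and was smaller than it for NCOA2 and FKBP4. DMSO R7 and R9 both lay above the other 6 libraries for NCOA1, NCOA3, NCOR1 and NRIP1 and below them for PTGES3, so 5 of 7 genes put this pair outside the rest, against 49.2% of all genes. The mean of DMSO R7 and R9 over that of DMSO R1 and R3 was 1.25 for NCOA1, 1.26 for NCOA3, 1.18 for NCOR1 and 1.36 for NRIP1. It was 0.792 for PTGES3, 0.925 for NCOA2 and 1.08 for FKBP4. Since these libraries were set apart by their own expression, the ratios are a description. Counting error was smaller than this spread, since the lowest count of any of the 7 in a library was 1189, which gives a Poisson error of 2.90%.

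**Figure D3:**
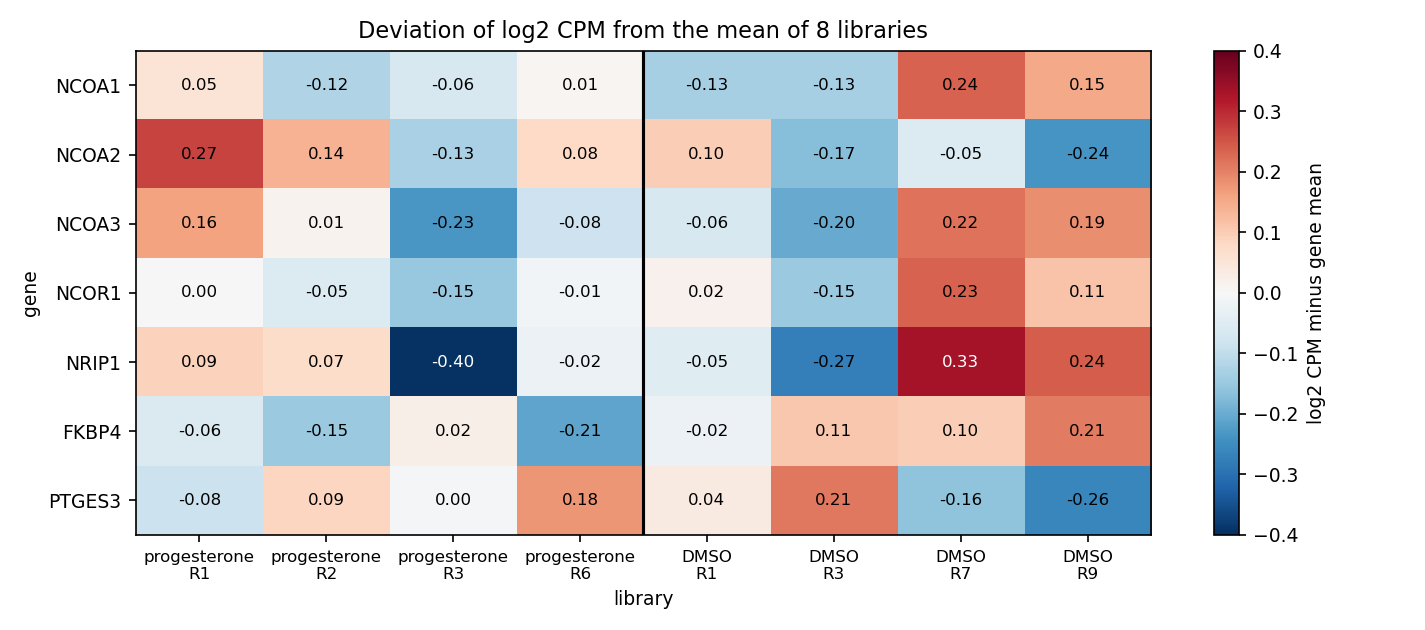
Deviation of log2 CPM (prior count 2) from each gene's mean over the 8 libraries, with progesterone libraries left of the line and DMSO libraries right of it. DMSO R7 ranges from -0.16 for PTGES3 to 0.33 for NRIP1. Progesterone R3 is at -0.40 for NRIP1 and -0.23 for NCOA3.

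Within the progesterone group, R3 was the lowest of the 4 libraries for NCOA2, NCOA3, NCOR1 and NRIP1 and the highest for FKBP4. The span of log2 CPM over the 8 libraries was 0.37 for NCOA1, 0.51 for NCOA2, 0.45 for NCOA3, 0.39 for NCOR1, 0.73 for NRIP1, 0.42 for FKBP4 and 0.47 for PTGES3. The median span over all genes tested was 0.67, so NRIP1 alone among the 7 exceeded it. Likeness between genes was measured as the root mean square difference of log2 CPM over the 8 libraries, after centring each gene on its mean. Of the 21 pairs among the 7, NCOA1 and NCOR1 were most alike, at 0.07, and NCOA3 was at 0.08 from NCOR1 and 0.09 from NRIP1. NRIP1 and PTGES3 differed most, at 0.35. FKBP4 and PTGES3, both parts of the HSP90 complex, were at 0.25.

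The same measure was taken over the genes tested, leaving out those whose symbol is only a placeholder. Among these, the gene most like NCOA1 was PLPP1 at 0.05, followed by DNAJC21 and CSNK1A1. VPS13C was nearest to NCOA2 at 0.04, before DNMBP and MYCBP2. MEF2A was nearest to NCOA3 at 0.03, before BAZ2A. TGFBRAP1 was nearest to NCOR1 at 0.03, before HELZ and RBM10. MSI2 was nearest to NRIP1 at 0.04, before ITSN2 and TP53BP1. ABCF3 was nearest to FKBP4 at 0.03, before MIEF1 and AAMP, and LIN9 was nearest to PTGES3 at 0.04, before CEP78 and ORC6. With 8 libraries from 1 line, of which 2 stand apart, the likeness describes these libraries only.

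The 7 genes were set beside 76 partners listed by role, of which 75 passed the filter. Among them 2 rose, 1 fell and 72 did not pass (edgeR, adjusted over all genes). The share higher was 2.67%, against 1.69% of all genes, and the share lower was 1.33%, against 0.959%. These shares are close to those of all genes, so the counts are no result about the lists.

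**Figure D4:**
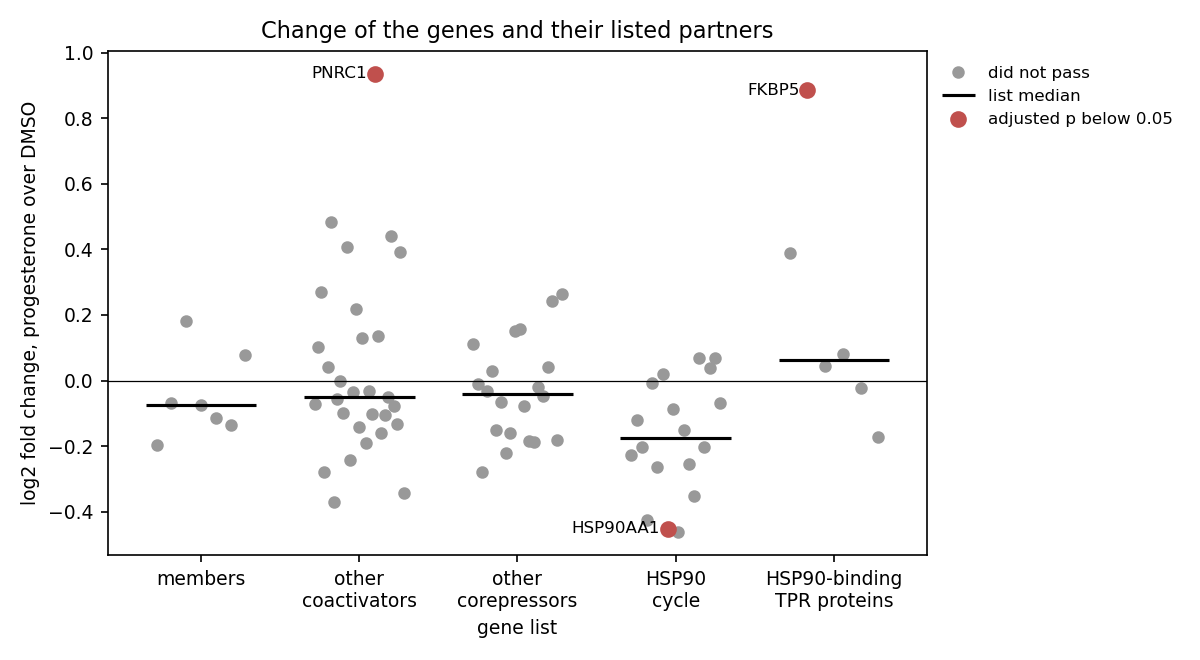
Log2 fold change, progesterone over DMSO, of the 7 genes (members) and of 4 lists of partners, with 1 point per gene and a line at each list's median. FKBP5 and PNRC1 were higher and HSP90AA1 was lower at an adjusted p below 0.05, and these points are coloured.

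FKBP5 (535704, chromosome 23), the HSP90-binding immunophilin that opposes FKBP4, rose with progesterone. It had 148.9, 103.3, 89.2 and 98.1 CPM in progesterone R1, R2, R3 and R6, against 53.3, 52.6, 63.9 and 68.1 CPM in DMSO R1, R3, R7 and R9. Every progesterone library was above every DMSO library, and progesterone R1 was the highest. The change was 1.85-fold, or 0.89 ± 0.16 SE in log2 units (edgeR adjusted p = 0.0292), and 1.07 ± 0.19 when DMSO R7 and R9 were left out (edgeR adjusted p = 0.0382). The call was lost when DMSO R7 or progesterone R1, R2 or R6 was left out alone, with log2 fold changes between 0.71 and 0.94 and edgeR adjusted p between 0.0525 and 0.0751. It was also lost with the column number as a replicate block, at 1.13 in log2 units (edgeR adjusted p = 0.254).

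The ratio of FKBP5 to FKBP4 differed between the groups, while FKBP4 did not pass on its own. The CPM of FKBP5 over that of FKBP4 was 0.816, 0.603, 0.463 and 0.598 in progesterone R1, R2, R3 and R6. It was 0.286, 0.257, 0.314 and 0.310 in DMSO R1, R3, R7 and R9. All 4 progesterone ratios exceeded all 4 DMSO ratios, and DMSO R7 and R9 were nearer to the progesterone values than R1 and R3. The ratio was 2.09-fold higher with progesterone by geometric means (exact permutation test, two-sided, p = 0.0286, the smallest 4 against 4 libraries allow). Its log2 difference was 1.06, and the log2 fold change of FKBP5 alone was 0.89. Since FKBP5 alone already had groups without overlap, this p does not show a shift beyond the change of FKBP5. As the lengths of the transcripts were not used, the ratio compares libraries and does not say which of the RNAs was more abundant. Among the other listed TPR proteins, PPID, PPP5C, FKBPL and FKBP8 did not pass, with log2 fold changes from -0.17 to 0.08.

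**Figure D5:**
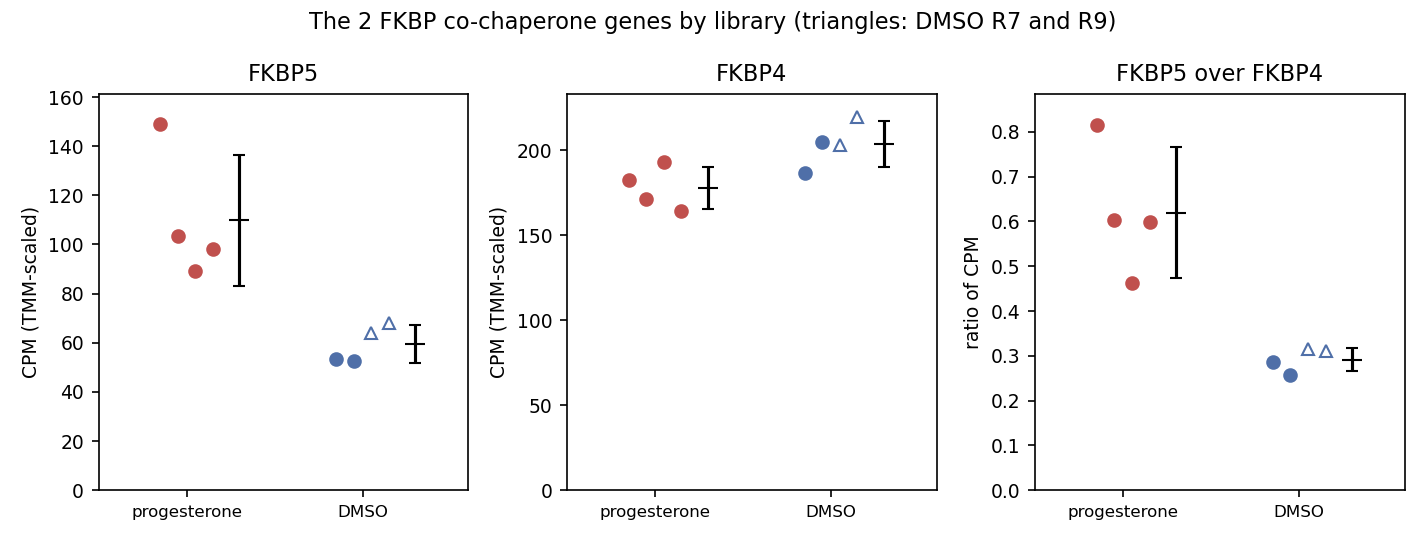
CPM of FKBP5 and FKBP4 and their ratio in each library, with progesterone left and DMSO right in each panel, means with SD (n = 4 each) and triangles for DMSO R7 and R9. The groups are apart for FKBP5 and for the ratio, from 0.463 to 0.816 with progesterone and from 0.257 to 0.314 with DMSO, and overlap for FKBP4.

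Of 18 genes of the HSP90 cycle, 0 rose, 1 fell and 17 did not pass in edgeR, while DESeq2 called 3 and limma voom 1. The DESeq2 calls were 16.7% of the list, against 13.5% of all genes. HSP90AA1 (281832, chromosome 21), the stress-inducible cytosolic HSP90, had 1126, 1049, 1009.6 and 980 CPM in progesterone R1, R2, R3 and R6, against 1367, 1269, 1490.3 and 1568 CPM in DMSO R1, R3, R7 and R9. All progesterone libraries were below all DMSO libraries. Its log2 fold change was -0.45 ± 0.10 SE, 1.37-fold lower (edgeR adjusted p = 0.0450). Leaving out DMSO R7 and R9 gave -0.33 ± 0.10, which did not pass (edgeR adjusted p = 0.144). It also did not pass without DMSO R7 alone, without DMSO R9 alone or without any 1 progesterone library, with edgeR adjusted p between 0.0801 and 0.137. With no filter on low counts and with a model term for DMSO R7 and R9 the adjusted p was 0.0601 and 0.0851, and HSP90AA1 passed in 9 of the 18 alternatives.

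HSP90AB1, the constitutive HSP90, was at 989 ± 44.0 CPM with progesterone and 1051 ± 212 CPM with DMSO (SD, n = 4 each) and did not pass. Its log2 fold change was -0.09 with all libraries and 0.19 without DMSO R7 and R9. The median log2 fold change of the 18 genes was -0.18, against -0.01 over all genes tested, and -0.07 without DMSO R7 and R9. At an unadjusted p under 0.05 there were 8 of 18, all lower with progesterone, 44.4% against 14.5% of all genes that were lower. Without DMSO R7 and R9 there were 5 of 18, and the share of all genes at that setting is not given here. Groups did not overlap for 5 of the 18, 27.8% against 16.2% of all genes. These shares describe the list, whose genes were not tested as a set.

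Of 29 other coactivators tested, 1 rose and 28 did not pass, and PPARGC1A was below the filter. In either direction 3.45% of the list passed, against 2.65% of all genes. DESeq2 called 6, or 20.7%, against 13.5% of all genes. At an unadjusted p under 0.05 in edgeR the share was 34.5%, against 26.8% of all genes. The list was not tested as a set. PNRC1 (507736, chromosome 9), a proline-rich coactivator of nuclear receptors, had 120.5, 116.9, 129.2 and 118.3 CPM in progesterone R1, R2, R3 and R6. In DMSO R1, R3, R7 and R9 it had 80.7, 77.0, 56.5 and 39.2 CPM, all below the progesterone libraries. Its log2 fold change was 0.94 ± 0.19 SE, 1.91-fold (edgeR adjusted p = 0.0403), and 0.63 ± 0.09 without DMSO R7 and R9 (edgeR adjusted p = 0.00799). The call was lost when DMSO R7 or any 1 progesterone library was left out alone, with log2 fold changes between 0.88 and 0.97 and edgeR adjusted p between 0.0944 and 0.120. The acetyltransferases EP300 and CREBBP, which the p160 proteins recruit, had log2 fold changes of -0.06 ± 0.09 and 0.04 ± 0.10 SE. Also listed were CARM1 at 0.27 ± 0.08, KAT2B at 0.41 ± 0.20, KAT2A at -0.10 ± 0.10 and PRMT1 at -0.05 ± 0.09. None of them passed, with an edgeR adjusted p of 0.0770 for CARM1 and 0.224 for KAT2B. CARM1 had groups without overlap, as 16.2% of all genes had. Without DMSO R7 and R9, CARM1 was at 0.24 ± 0.08 and KAT2B at 0.08 ± 0.09.

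None of 20 other corepressors passed in edgeR, where the unadjusted p of 4 was under 0.05, 20.0% against 26.8% of all genes. With DESeq2 there were 4 calls, also 20.0%, against 13.5% of all genes, and with limma voom 0. The 2 with the smallest p were TBL1X, a subunit of the NCOR1 complex, at 0.24 ± 0.07 SE (edgeR adjusted p = 0.0882), and the repressor DAXX at -0.28 ± 0.09 (0.0915). Both passed with DESeq2, TBL1X also with the replicate block and DAXX also without DMSO R1. HDAC3 and GPS2, other subunits of the NCOR1 complex, had log2 fold changes of -0.07 and -0.03.

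Of the other prostaglandin E synthases, PTGES was at 0.33 ± 0.25 SE and PTGES2 at -0.07 ± 0.25 on the log2 scale, and neither passed in edgeR. PTGES moved to 0.04 without DMSO R7 and R9, to 0.10 without progesterone R3, to 0.20 without DMSO R9 and to 0.49 without DMSO R3. PTGES2 had 16.4, 16.1, 16.3 and 16.0 CPM in progesterone R1, R2, R3 and R6, against 11.7, 10.4, 23.4 and 22.8 CPM in DMSO R1, R3, R7 and R9. The SD over the progesterone libraries was 0.135 CPM, and the DMSO libraries lay on either side of them, R1 and R3 below and R7 and R9 above. Leaving R7 and R9 out put PTGES2 at 0.57 ± 0.12 in log2 units (edgeR adjusted p = 0.0544). The receptors these proteins serve did not pass either: PGR spanned 10.7 to 18.2 CPM with progesterone and 7.26 to 13.2 CPM with DMSO, and NR3C1 52.4 to 73.9 CPM with progesterone and 47.6 to 71.0 CPM with DMSO.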

How the data were processed

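The table the authors deposited was read as estimated counts per gene, length normalized by its name, in a way not given in the sources used here. Salmon 1.4.0, bcl2fastq and the build ARS-UCD1.2 are named, without roles, per the submitters' processing notes. Column names give the group, not the sample. Values were rounded, filtered by filterByExpr (13557 genes kept), scaled by TMM and tested with edgeR 4.0.16 (quasi-likelihood, robust, two-sided, group as the only term, all 8 libraries) in R 4.3.3, with Benjamini-Hochberg adjustment and a threshold of 0.05. The procedure was tested on counts simulated with a dispersion estimated without DMSO R7 and R9, and with no split inside a group. That simulation does not cover the spread of the real DMSO libraries. An SE is the log2 fold change divided by the square root of F. DESeq2 1.42.0 and limma voom 3.58.1 were among 18 alternatives. No pair within a group agreed within sampling noise (chi-square per degree of freedom 14.2 to 129). The genes, partner lists and alternatives were chosen with earlier results of these data known. Named are the 7 genes, partners past the threshold or otherwise the 2 with the smallest p per list, and FKBP5, HSP90AA1, HSP90AB1, PGR and NR3C1. EP300, CREBBP, CARM1, KAT2A, KAT2B, PRMT1, HDAC3, GPS2 and other TPR proteins were added for their role. Some genes the rule names are counted but not reported here. Sequences are not used here.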

Additional observations from a re-analysis of the deposited data

How the results depend on the processing

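None of the 7 genes passed under any of the 18 alternatives, and NCOA2 and FKBP4 kept their sign in all of them. Without DMSO R7 and R9, and with a model term for these 2 libraries, log2 fold changes turned sign to 0.12 and 0.10 for NCOA1, 0.12 and 0.10 for NCOA3, 0.024 and 0.011 for NCOR1, 0.12 and 0.11 for NRIP1, -0.066 and -0.079 for PTGES3, 0.57 and 0.55 for PTGES2 and 0.19 and 0.18 for HSP90AB1. With the model term PTGES2 passed (edgeR adjusted p = 0.0289). PTGES2 was at 0.024 with limma voom. The column number as a replicate block rests on R1 and R3, the numbers both groups share, and leaves 1 residual degree of freedom. Deviations from the group means correlated at 0.23 for R1 and 0.21 for R3 across genes, and labels do not say that a number marks a shared source. The block gave 0.13 for NCOA1, 0.10 for NCOA3, 0.013 for NRIP1, -0.17 for PTGES3, 0.56 for PTGES2 and 0.21 for HSP90AB1. In it PTGES2 and HSP90AB1 passed (edgeR adjusted p = 9.43e-05 and 0.0369) and FKBP5 did not (0.254). It called 2531 of 13557 genes and 17 of 75 partners, against 359 and 3 without it. DESeq2 called 1830 of 13557 genes, 13.5%, and 14 of 75 partners. Without DMSO R7 and R9, 162 of 13764 genes and 2 of 75 partners passed. Leaving out 1 library gave 42 to 1782 genes and 0 to 12 partners. The highest counts were 1782 of 13700 genes and 12 of 75 partners, both without DMSO R1. Leaving out 1 library moved NCOA1 between -0.12 and 0.0019, PTGES2 between -0.25 and 0.12 and HSP90AB1 between -0.16 and 0.034. The cause of these changes was not tested. Partners were not tested as a set, and their counts rose and fell with those of all genes, so they are no result about the lists.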

Other observations

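Among the listed coactivators, the paralogous RNA helicases DDX5 and DDX17 had log2 fold changes of opposite sign, and neither passed in edgeR; the pair was singled out after its values were seen. DDX5 was at 456 ± 30.5 CPM with progesterone and 589 ± 85.9 CPM with DMSO, and DDX17 at 512 ± 40.8 CPM with progesterone and 366 ± 92.5 CPM with DMSO (SD, n = 4 each). The log2 fold changes were -0.37 ± 0.11 for DDX5 (edgeR adjusted p = 0.0884) and 0.49 ± 0.16 for DDX17 (0.106). Without DMSO R7 and R9 they were -0.18 and 0.22. The ratio of DDX17 to DDX5 was 1.22, 1.15, 1.04 and 1.09 in progesterone R1, R2, R3 and R6, against 0.865, 0.843, 0.446 and 0.428 in DMSO R1, R3, R7 and R9. It was higher in all 4 progesterone libraries than in any DMSO library, and no test was run on it.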
